A study of Mus musculus with 18 samples.

Results

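The normal maturation of the mouse ventricle between the second and the third week after birth was described from 6 control (CTL) hearts, 3 taken at 2 weeks and 3 at 3 weeks of age, out of 18 hearts in the whole series. They were chosen by their genotype and age labels alone. The CTL mice were of the FVB/N inbred strain and carried a loxP-flanked (floxed) Cops8 gene on both alleles with no Cre transgene, so that Cops8, which encodes a subunit of the COP9 signalosome, was not deleted. The other 12 hearts came from littermates at the same ages that carried Cre under the mouse Myh6 promoter, which is active in cardiomyocytes. Het-CKO mice had 1 floxed and 1 intact Cops8 allele and Hom-CKO mice had 2 floxed alleles, with 3 hearts a group at each age. Total RNA of ventricular tissue was hybridised to 1-colour CodeLink arrays, 1 heart to an array. Nothing in the labels says that the 3 hearts of a group were from separate litters, and p-values measure only the spread between hearts of a group, shared over all 18 hearts.

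In the first weeks of life the mouse heart stops making new muscle cells, replaces fetal isoforms of contractile proteins by adult ones and turns from glucose and lactate to fatty acids as its main fuel, while milk, which is rich in fat, is its food. Around the third week pups begin to eat solid chow, which is richer in carbohydrate and plant compounds. Fibroblasts make much of the collagen network in the same period, and vessels and resident immune cells expand with the muscle. In RNA from whole ventricle, fewer cells of a type and less RNA per cell cannot be told apart.

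Levels below are intensities of a probe relative to the median probe of its array, after quantile normalization over all 18 arrays, and changes are log2 fold changes of 3 weeks over 2 weeks with their standard error (SE). A probe was called higher or lower at an adjusted p under 0.05 in limma, fitted over all 18 arrays. All 13 cardiomyocyte markers were above background on every CTL array, from Tnnt2 and Tnni3 to Nkx2-5, and their summed level was between 3669 and 4003. Quantile normalization gives the brightest probes nearly the same value on every array, so this sum cannot show a steady level. Of the 13 markers 1 was called higher and 1 lower (median change 0.04). With each array scaled by its median instead, 9 were called higher and none lower (median 0.47). Cops8, the floxed gene, was at 31.5, 34.6 and 38.2 at 2 weeks and at 33.0, 31.3 and 30.8 at 3 weeks (brighter of 2 probes, log2 change -0.13, SE 0.11, adjusted p = 0.437), and the 2 groups overlapped. The 2 probes differed in the sign of the change, and neither was called. In Hom-CKO hearts the same probe was at 34.9 to 41.4 at 2 weeks and 35.2 to 35.8 at 3 weeks, so its level does not report the deletion.

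The 2 ages were measured as separate scan sets, and their arrays differed in brightness. The median raw intensity was 37.94 to 48.34 at 2 weeks and 26.25 to 30.98 at 3 weeks, and 25.34 to 29.12% against 30.89 to 35.58% of the discovery probes lay near background. Age, scan set and brightness cannot be told apart in any of the 3 genotypes. Within the CTL arrays the first principal component, with 51.1% of the variance, separated the ages, and the second, with 25.3%, set replicate 1 of 2 weeks and replicate 3 of 3 weeks apart from the other 4. Xist, the RNA of the inactive X chromosome, was between 9.97 and 18.0 on 5 CTL arrays and 0.276 on replicate 2 of 3 weeks, the only CTL array with the Y-linked gene Ddx3y above the floor (5.95). The CTL hearts were thus 5 female and 1 male by these genes, with no male at 2 weeks, although the study's methods give both sexes in each group.

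**Figure D1:**
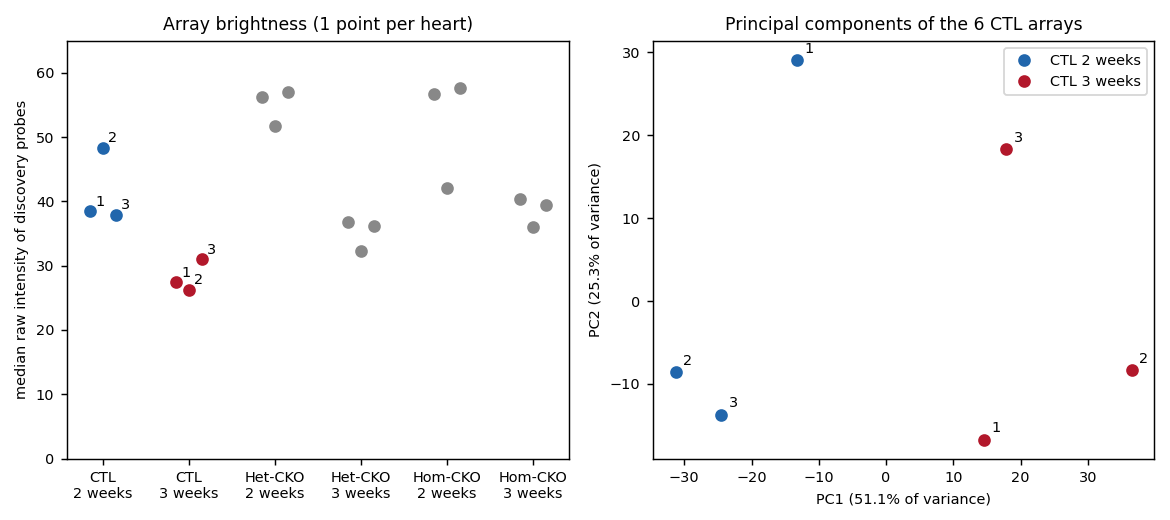
Median raw intensity of the discovery probes of each array by genotype and age (left, 1 point per heart, numbers give the CTL replicate) and the first 2 principal components of the 6 CTL arrays (right). The CTL arrays of 3 weeks, at 26.25 to 30.98, were all dimmer than those of 2 weeks, and the first component (51.1% of the variance) separates the ages.

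Between 2 and 3 weeks, 4286 of 26582 probes tested were called in CTL hearts, 16.1% of them. Of these, 2043 (7.69%) were higher and 2243 (8.44%) lower at 3 weeks. The ages did not overlap for 3476 of the 4286 called probes and for 6144 (23.1%) of all probes tested. Calls and overlap come from the same arrays. A lack of overlap is therefore common among called probes and is no separate support for a call. The number of calls differed between fits. The median SD within a group was 0.154 and 0.165 on the log2 scale in CTL hearts and 0.086 to 0.140 in the other groups. The SEs and p-values of the main fit rest on 1 spread shared by all groups, which is on average narrower than that of CTL hearts. They are therefore on the small side for these hearts. With 1 weight per group 1497 probes (5.63%) were called. A fit on the 6 CTL arrays alone called 148 (0.557%), and with the brightness of the array as a covariate 10 probes (0.0376%) were called. Without replicate 2 of 2 weeks 2102 probes were called, without replicate 2 of 3 weeks, the male heart, 2092, and without both arrays that stood apart 5012. The choice of scaling moved the direction of bright probes: with each array scaled by its median in place of quantile normalization, 3590 probes were higher and 2063 lower, and the median change of probes with a mean level over 10 was 0.23 in place of 0.02. Directions of bright gene groups are therefore given below under both scalings.

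Gene groups with many called members, mostly lower at 3 weeks, were those of mitosis, the extracellular matrix and endothelial cells. Groups with many called members that were mostly higher were those of branched-chain amino acid breakdown, cholesterol synthesis, antioxidant and NRF2 targets, macrophages, antigen presenting cells and red cells, and glucocorticoid targets were called in both directions. The genes of sarcomere, oxidative phosphorylation and cardiac ion channels had few calls under quantile normalization. The median change of a list is set beside 0.03 (0.026), the median of all probes tested.

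**Figure D2:**
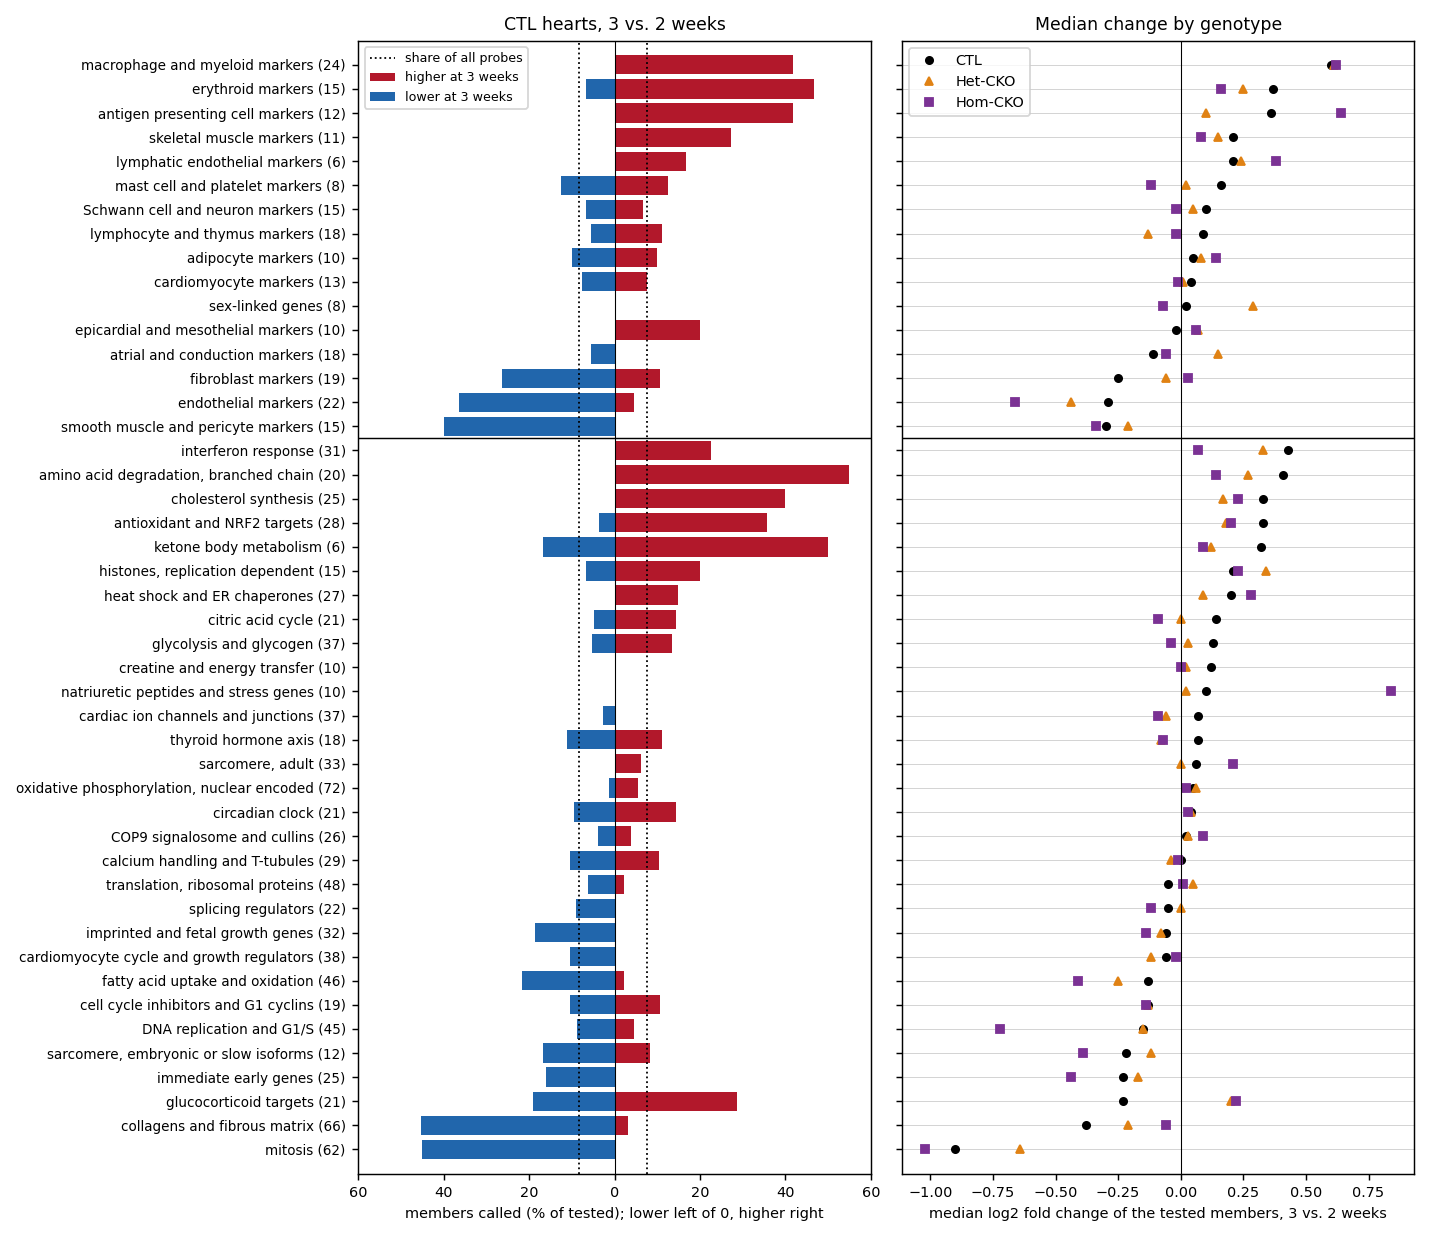
Share of the tested members of each gene list called higher (red, right of 0) or lower (blue, left of 0) at 3 vs. 2 weeks in CTL hearts, with the number tested in brackets and the share of all probes as dotted lines (left), and the median log2 fold change of each list in the 3 genotypes (right). Mitosis (28 of 62 lower) and matrix (30 of 66 lower) lie far left of the dotted line and branched-chain amino acid breakdown (11 of 20 higher) far right.

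Troponin I is the inhibitory subunit of the thin filament, and its slow skeletal form, Tnni1, is the form of the fetal heart. Tnni1 was at 2.24 and 5.77 on the 2 arrays of 2 weeks that measured it, and at 0.411, 0.465 and 0.292 at 3 weeks, where no array was above background. It fell at least 9.1-fold (log2 change -3.23, SE 0.33, adjusted p = 6.26e-05), the largest fall among the contractile genes listed, with the spot of replicate 3 of 2 weeks left out by its quality flag. The cardiac form, Tnni3, was at 349, 411 and 398 at 2 weeks and at 422, 431 and 431 at 3 weeks. These values did not overlap, but the change of 0.15 was not called (adjusted p = 0.222). With median scaling it was 0.59 (adjusted p = 0.00142). Tnni1 fell in the other genotypes as well, with a log2 change of -1.46 (adjusted p = 0.00896) in Het-CKO hearts and of -2.04 (adjusted p = 0.000287) in Hom-CKO hearts.

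None of the following isoforms of the sarcomere was called under quantile normalization. Myh7, the slow or fetal myosin heavy chain, was at 0.869, 1.65 and 0.924 at 2 weeks and at 1.06, 0.643 and 0.889 at 3 weeks (brighter probe, log2 change -0.38, SE 0.32, adjusted p = 0.449). Myh6, the adult heavy chain, was at 2.51, 5.01 and 3.72 and then at 4.93, 5.44 and 3.44 (brighter probe, 0.32, SE 0.24, adjusted p = 0.369). Both pairs of groups overlapped, and the second probe of neither gene was called. Skeletal α-actin, Acta1, ranged from 22.5 to 54.3 at 2 weeks and from 33.5 to 81.3 at 3 weeks (0.92, SE 0.33, adjusted p = 0.0656, and 1.22 with median scaling, adjusted p = 0.016), and replicate 3 of each age lay among the other age's values. Cardiac α-actin, Actc1, was at -0.03 (adjusted p = 0.835) and the ventricular light chain, Myl2, at 0.04 (adjusted p = 0.783), whereas with median scaling both were called higher, at 0.43 (adjusted p = 0.0311) and 0.48 (adjusted p = 0.0183). Quantile normalization gives the brightest probes nearly the same value on every array (Actc1 587 to 625 on the CTL arrays). The small changes of Actc1, Myl2 and Tnni3 under it therefore cannot show that a level held steady. The atrial light chain Myl7 spread from 3.06 to 53.5 at 3 weeks alone (-1.67, SE 1.08, adjusted p = 0.31), whereas Myl4 stood at 21.3 to 43.7 over both ages.

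Of 12 tested genes of embryonic or slow isoforms, 2 were lower, Tnni1 and the smooth muscle protein Tagln (-0.62), and 1 was higher, Myh8, a perinatal myosin heavy chain of skeletal muscle (1.23, SE 0.21, adjusted p = 0.00154). Myh8 was at 1.37, 1.14 and 1.69 at 2 weeks and at 2.29, 4.19 and 3.54 at 3 weeks, with no overlap. It is also in the list of skeletal muscle markers. Of its 11 tested members 3 were higher (Myh8, Pvalb and Cacna1s) and none lower, 27.3% against 16.1% of all probes called. With 1 weight per group 2 of these markers were higher. Of 33 tested genes of the adult sarcomere, 2 were higher and none was lower (median change 0.06). These were Tcap, the telethonin of the Z-disc, at 85.5, 105 and 93.3 and then 155, 145 and 134 (0.61, adjusted p = 0.00188), and the small heat shock protein Cryab (0.66, adjusted p = 0.0158). With median scaling 12 of the 33 were called higher and none lower.

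Calcium handling had 3 of 29 members higher and 3 lower, counts near those that the shares of all probes give. Without 1 array at a time 1 to 4 were higher (1 without replicate 2 of 3 weeks) and 2 to 5 lower (5 without replicate 1 of 3 weeks, 2 without replicate 2 of either age). With 1 weight per group 1 was higher and 2 lower, and with median scaling 6 and 3. The higher members were Hrc, which binds calcium within the sarcoplasmic reticulum (0.61), the junctophilin Jph1 (0.56) and the calcium sensor S100a1 (0.39). The lower members were the calcium channel subunit Cacnb2 (-0.97), the inositol trisphosphate receptor Itpr2 (-0.52) and the calcium pump of the plasma membrane Atp2b1 (-0.52). All 6 genes had no overlap between the ages at the probe used. Cacnb2 was called at 2 of 4 probes and Itpr2 at 1 of 6, and the probes of each differed in sign. Of 37 ion channel and junction genes 1 was called, the potassium channel subunit Kcne1, at 2.56, 4.72 and 2.62 at 2 weeks and 1.37, 1.08 and 1.18 at 3 weeks (-1.39, SE 0.21, adjusted p = 0.000569). None of 10 natriuretic peptide and stress genes was called. Nppa, the atrial natriuretic peptide, was between 6.73 and 14.8 at 2 weeks and between 11.8 and 26.0 at 3 weeks (0.83, SE 0.39, adjusted p = 0.156), and Nppb was between 61.8 and 74.5 and then between 34.5 and 72.8 (-0.37, SE 0.23, adjusted p = 0.286).

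**Figure D3:**
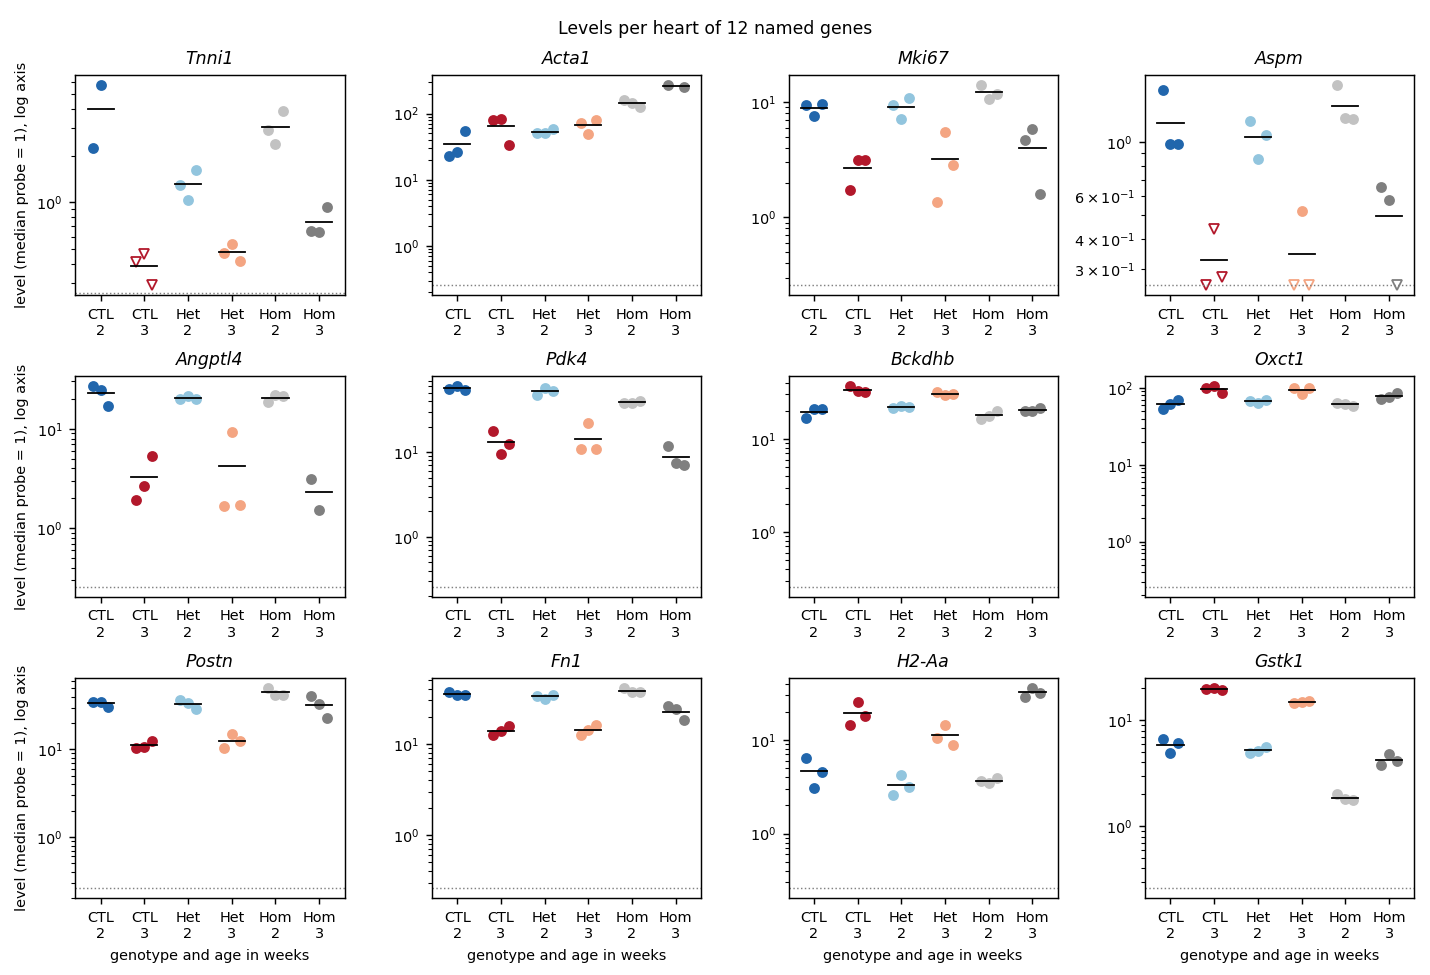
Level of 12 genes in each heart, relative to the median probe of its array (log axis), by genotype and age in weeks, with the mean as a bar; open triangles are spots not above background, and the dotted line is the floor (0.259). In CTL hearts Tnni1 goes from 2.24 and 5.77 to at most 0.465 and Angptl4 from at least 17.0 to at most 5.37, without overlap of the measured spots.

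Angptl4, a secreted inhibitor of lipoprotein lipase, was at 26.8, 24.4 and 17.0 at 2 weeks and at 1.91, 2.64 and 5.37 at 3 weeks. It fell by 2.89 on the log2 scale (SE 0.51, adjusted p = 0.00208), 7.43-fold, with no overlap. Pdk4, the kinase that shuts off pyruvate dehydrogenase and so spares glucose, went from 55.1, 60 and 54.9 to 18.0, 9.49 and 12.4 (-2.14, SE 0.26, adjusted p = 0.000151). Every heart of 3 weeks lay below every heart of 2 weeks for both genes. In Het-CKO and Hom-CKO hearts, respectively, Angptl4 changed by -2.78 and -3.23 and Pdk4 by -1.94 and -2.17 on the log2 scale, all of them called.

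Of 46 tested genes of fatty acid uptake and oxidation 10 were lower and 1 was higher, with a median change of -0.13. The mitochondrial carrier Ucp3 fell from 6.38, 12.5 and 10.5 to 3.15, 3.23 and 4.47 (-1.40, adjusted p = 0.0066), and malonyl-CoA decarboxylase, Mlycd, from 19.2, 20.9 and 20.5 to 12.7, 12 and 10.6 (-0.78, adjusted p = 0.000479). Neither overlapped between the ages. Lipoprotein lipase itself, Lpl, was at 198, 231 and 256 and then at 355, 362 and 287 (0.55, adjusted p = 0.0102), also with no overlap, and opposite in direction to its inhibitor Angptl4. The rest of the calls were small and depended on the scaling. With median scaling 5 members were lower (Angptl4, Pdk4, Ucp3, Mlycd and the nuclear receptor Esrrg) and 5 were higher, the list's median was 0.15, and the fatty acid binding protein Fabp3, called lower at -0.45, was at 0.05. The enzymes of the oxidation spiral were near 0, such as Acadm at -0.01 (SE 0.20, adjusted p = 0.989), and so were Cpt1b at 0.00 (SE 0.24, adjusted p = 0.996) and the regulators Ppara (-0.01) and Ppargc1a (-0.16).

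Glucose uptake genes were higher at 3 weeks. The insulin-responsive transporter Slc2a4 was at 17.2, 28.3 and 32.0 at 2 weeks and 44.2, 46.8 and 34.0 at 3 weeks (0.73, SE 0.19, adjusted p = 0.0197), and Slc2a1 rose by 0.89 (SE 0.21, adjusted p = 0.012). The 3 hearts of each age did not overlap for either gene. Of 37 genes of glycolysis and glycogen, 5 were higher and 2 lower with quantile normalization, 17 higher and 1 lower with median scaling, and 1 higher and none lower with 1 weight per group. Without replicate 2 of 3 weeks 3 were higher and none lower. Of 72 nuclear-encoded genes of oxidative phosphorylation 4 were higher, among them the muscle form of a cytochrome oxidase subunit, Cox6a2 (0.37, adjusted p = 0.021), and 1 was lower, its form of other tissues, Cox6a1 (-0.39, adjusted p = 0.00782). Cox6a2 went from 78.4, 78.9 and 90.0 to 100, 101 and 117 and Cox6a1 from 175, 189 and 198 to 145, 141 and 143. The list's median was 0.05. With median scaling 40 of the 72 were higher and none lower (median 0.42), and of 21 genes of the citric acid cycle 17 were higher, against 3 higher and 1 lower with quantile normalization.

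The breakdown of branched-chain amino acids had 11 of 20 tested genes higher and none lower, with a median change of 0.41. Bckdhb, a subunit of the branched-chain ketoacid dehydrogenase that commits them to oxidation, was at 16.9, 21.0 and 21.0 at 2 weeks and at 36.6, 32.8 and 32.0 at 3 weeks (0.79, SE 0.10, adjusted p = 0.000233). The other subunits Dbt (0.72) and Bckdha (0.58), the aminotransferase Bcat2 (0.63), the phosphatase that activates the complex, Ppm1k (0.65), the kinase that inactivates it, Bckdk (0.35), and isovaleryl-CoA dehydrogenase, Ivd (0.85), rose as well. None of the 11 overlapped between the ages. With median scaling 16 were higher, and with 1 weight per group 7. For Het-CKO hearts the list's median was 0.27, and for Hom-CKO hearts 0.14.

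Oxct1, which activates ketone bodies for oxidation outside the liver, was at 53.6, 61.8 and 69.1 at 2 weeks and at 99.0, 105 and 85.6 at 3 weeks (0.66, SE 0.12, adjusted p = 0.00178). Bdh1, the hydroxybutyrate dehydrogenase of mitochondria, was not above background at 2 weeks and rose at least 2.49-fold. Neither gene overlapped between the ages.

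Mitotic genes were lower at 3 weeks. Of 62 tested members of the mitosis list 28 were lower and none was higher, and the median change was -0.90. Mki67, a protein of dividing cells, was at 9.46, 7.60 and 9.61 at 2 weeks and at 1.73, 3.13 and 3.17 at 3 weeks (-1.78, SE 0.45, adjusted p = 0.015). Aspm, a protein of the spindle pole, fell at least 3.05-fold to below background on all 3 arrays of 3 weeks, and Cdk1, the kinase that starts mitosis, went from 13.2, 6.64 and 8.37 to 1.80, 4.17 and 3.40 (-1.62, SE 0.52, adjusted p = 0.045). The groups did not overlap for these genes. Among the others that fell were the spindle checkpoint kinase Bub1b (-0.99, SE 0.14, adjusted p = 0.000662), the cytokinesis factors Prc1 (-1.69), Anln (-1.13) and Ect2 (at least 2.15-fold, below background at 3 weeks), the survivin gene Birc5 (-1.67) and the kinase partner Cks2 (-1.88). Kif11, a spindle motor, stood at its brightest probe among the members not called (0.00, adjusted p = 0.993), whereas a dimmer one of its 4 probes fell by 1.69 (adjusted p = 0.0018).

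The mean deviation of the mitosis list on the log2 scale was 0.61, 0.19 and 0.40 on the arrays of 2 weeks and -0.64, -0.19 and -0.37 on those of 3 weeks, so that the ages did not overlap. Without 1 CTL array at a time 17 to 27 members were lower, the fewest without replicate 1 of 3 weeks, where Mki67 missed the threshold (-1.49, adjusted p = 0.0508), and 16 were lower without both arrays that stood apart. With 1 weight per group 9 were lower, in the CTL arrays alone 6, and with brightness as a covariate none, at a median of -1.16. Het-CKO hearts had 19 members lower (3.5% of all probes tested were lower in that genotype, and 3.94% higher) and a median of -0.64. Hom-CKO hearts had 39 lower (6.53% lower, 6.83% higher) and a median of -1.02. The genes of DNA replication and the G1 to S transition had 4 of 45 members lower and 2 higher (median -0.15), and the share lower was close to the 8.44% of all probes. Without 1 array at a time 2 to 4 were lower (2 without any single array of 2 weeks or without replicate 1 of 3 weeks), and with 1 weight per group 1. The 4 were the cyclin Ccna2 (-1.37), the helicase subunit Mcm6 (-0.60), and the repressor E2f7 and the checkpoint adaptor Clspn, which were below background on every array of 3 weeks and fell at least 2.37-fold and 1.35-fold.

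Promoters of genes that peak in mitosis often hold a short element named the cell cycle genes homology region. The letters TTTGAA, on either strand, lay in the window from 250 bases before to 50 after the start of 19 of the 28 mitosis genes called lower (67.9%) and of 15 of the 23 members not called that had a window (65.2%), against 5368 of 26742 genes with a window (20.1%). The letters CCAAT, on either strand, lay in 22 of the 28 (78.6%), 16 of the 23 (69.6%) and 41% of all. A match is a description of the sequence, not of binding. The windows below, from RefSeq on GRCm38.p6, are printed on the strand of the gene with the match in capitals, to show the element in genes with the falls given above. They lie at chr7:135716478-135716507 (Mki67, minus strand), chr10:69352966-69352995 (Cdk1, minus), chr3:27153975-27154004 (Ect2, minus), chr7:80294434-80294463 (Prc1, plus), chr4:118437344-118437373 (Cdc20, minus) and chr2:129297225-129297254 (Ckap2l, minus, where the match is on the other strand).
Mki67: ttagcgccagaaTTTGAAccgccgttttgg
Cdk1: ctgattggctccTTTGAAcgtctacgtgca
Ect2: ccgtttaccggaTTTGAAacacactcacaa
Prc1: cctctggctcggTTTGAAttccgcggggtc
Cdc20: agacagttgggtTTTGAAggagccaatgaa
Ckap2l: ttattggcgaatTTCAAAgtcgcggaagcc
In these windows the match began 116 bases before the transcript start in Mki67, 71 in Cdk1, 30 in Ckap2l and 18 in Cdc20. Cdc20, which activates the anaphase-promoting complex, was at 2.14, 2.09 and 2.41 and then at 0.895 and 0.811 on the 2 arrays that measured it (-1.37, SE 0.33, adjusted p = 0.0111), and Ckap2l, a spindle protein, fell by 1.77 (SE 0.43, adjusted p = 0.0113).

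**Figure D4:**
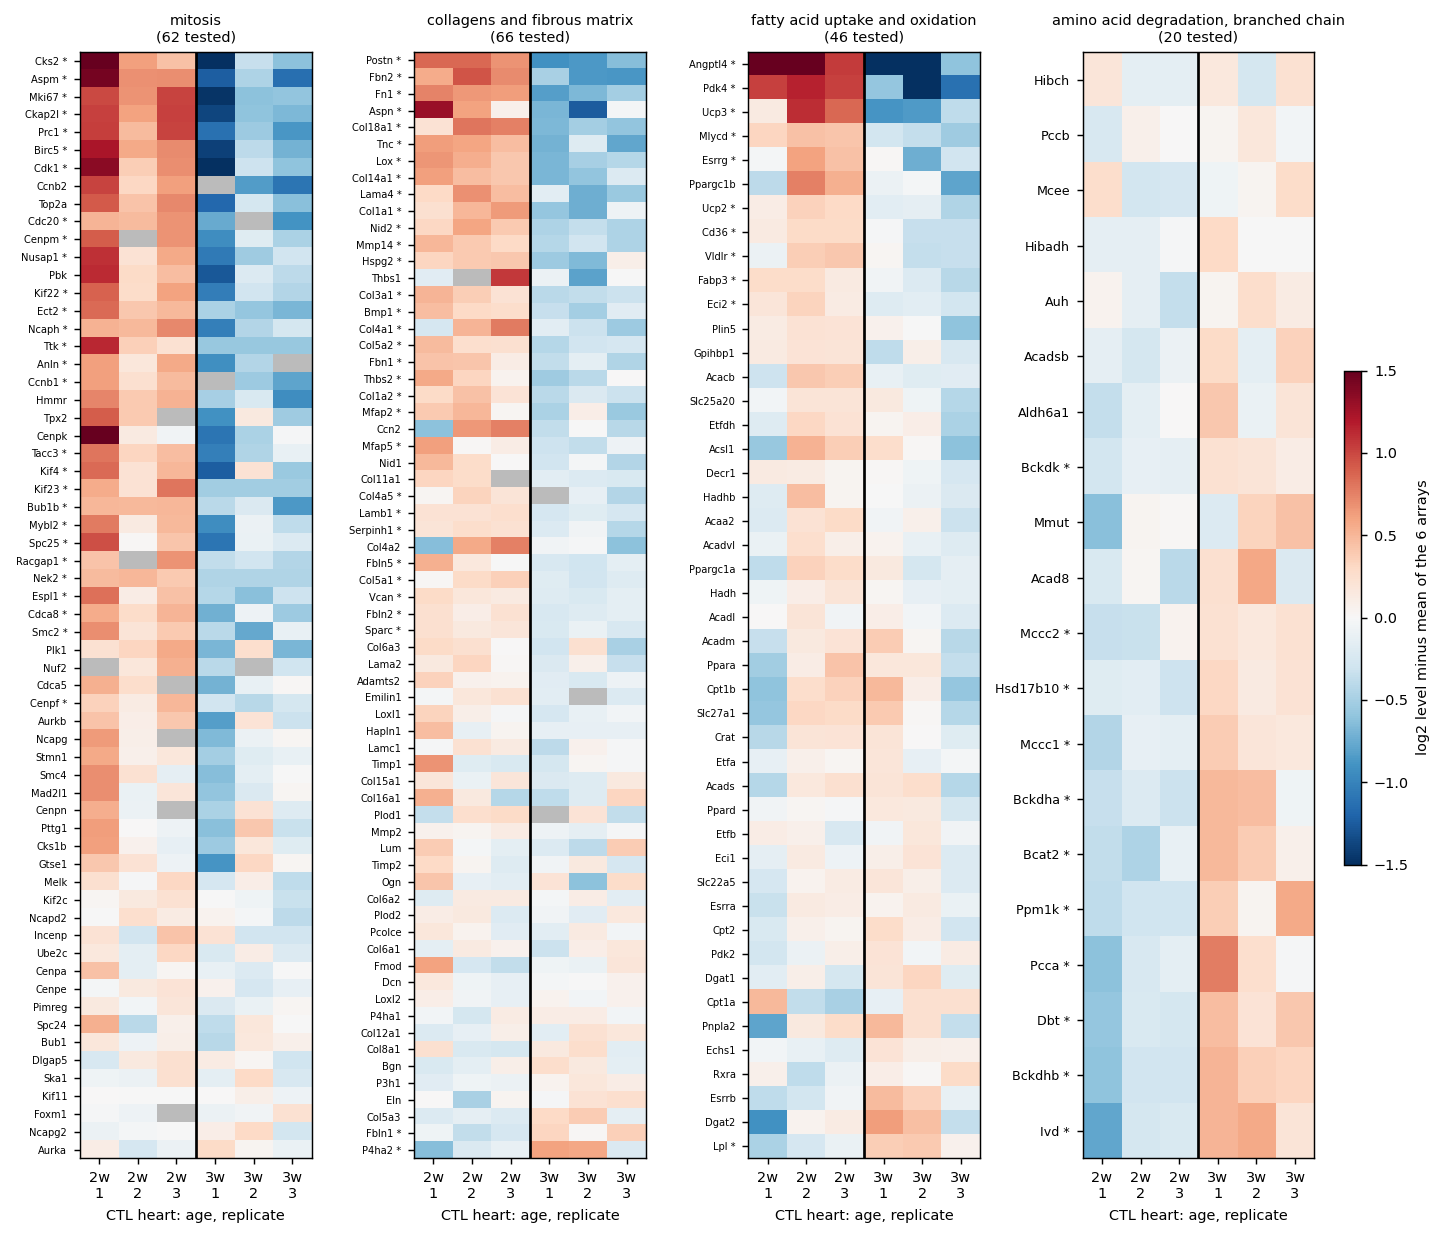
Log2 level of every tested member of 4 lists on the 6 CTL arrays, minus the mean of the 6, with the members ordered by their change and those called marked by a star; grey cells are spots left out. In the mitosis and matrix lists the starred members (28 of 62 and 32 of 66) go from red to blue between 2 and 3 weeks except for Fbln1 and P4ha2, and in the branched-chain list (11 of 20) from blue to red.

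Genes of the fibrous matrix were lower at 3 weeks. Of 66 tested members 30 were lower and 2 higher, with a median change of -0.38. Postn, a matrix protein of activated fibroblasts, was at 35.0, 35.1 and 30.7 at 2 weeks and at 10.3, 10.6 and 12.4 at 3 weeks (-1.60, SE 0.18, adjusted p = 7.73e-05). Fibronectin, Fn1, went from 37.2, 34.8 and 34.2 to 12.5, 13.9 and 15.6 (-1.34, SE 0.13, adjusted p = 4.42e-05), and the fetal fibrillin Fbn2 from 3.64, 4.78 and 4.07 to 1.77, 1.37 and 1.36 (-1.48, SE 0.14, adjusted p = 4.42e-05). The spread within an age was small beside these falls and no values overlapped. Lox, which cross-links collagen and elastin (-1.07), and tenascin C, Tnc (-1.13), fell too. So did the fibrillar collagens Col1a1 (-0.92), Col3a1 (-0.73) and Col1a2 (-0.62, at 1 of 2 probes, which differed in sign). The exceptions were Fbln1 (0.46) and the collagen hydroxylase subunit P4ha2 (0.64). With 1 weight per group 19 members were lower, with median scaling 19, and in the CTL arrays alone 6.

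The list's median was -0.21 in Het-CKO hearts, where 16 members were lower and 1 higher, and -0.06 in Hom-CKO hearts, where 10 were lower and 9 higher. The change with age differed from that in Hom-CKO hearts for Postn (difference -1.10, SE 0.25, adjusted p = 0.0377), Fbn2 (-1.02, SE 0.20, adjusted p = 0.0137) and Lox (-1.01, SE 0.16, adjusted p = 0.00388), where 1.25% of all probes differed. Lox had a mean of 4.60 at 2 weeks and 4.38 at 3 weeks in Hom-CKO hearts.

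Markers of non-muscle cells moved with age as well, and their part in the changes of the matrix, mitotic and immune lists was not tested. Fibroblast markers had 5 of 19 members lower, all of them matrix genes, and 2 higher, and their summed level was 1007, 891 and 847 at 2 weeks and 801, 789 and 911 at 3 weeks, with overlap. Gsn, the actin-severing gelsolin, which is abundant in fibroblasts, rose from 101, 86.3 and 89.5 to 176, 163 and 206 (0.97, SE 0.14, adjusted p = 0.000479). Endothelial markers had 8 of 22 lower and 1 higher, and a summed level of 647 to 662 at 2 weeks and 487 to 561 at 3 weeks, with no overlap. The tight junction protein Cldn5 was at 24.6, 27.0 and 35.1 and then at 11.6, 17.2 and 14.2 (-1.01, SE 0.19, adjusted p = 0.00275), and the receptor Tie1 fell by 0.74 (SE 0.14, adjusted p = 0.00306). With median scaling 4 endothelial markers were lower and 2 higher, and without replicate 2 of 2 weeks 5 were lower. Smooth muscle and pericyte markers had 6 of 15 lower, among them Myh11 and Cnn1, and none higher, but their summed level, 288 to 386 and 303 to 366, overlapped. Without replicate 2 of either age 1 was lower, without any other array except replicate 1 of 2 weeks 2 or 3, and with 1 weight per group none.

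Macrophage and myeloid markers had 10 of 24 members higher and none lower (median 0.60). Lyz2, lysozyme, was at 34.6, 20.2 and 22.3 at 2 weeks and at 36.1, 46.2 and 59.2 at 3 weeks (0.89, SE 0.23, adjusted p = 0.0168), and the chemokine receptor Ccr2 was at 1.27, 0.554 and 0.687 and then at 1.57 and 1.80 on 2 arrays (1.10, SE 0.26, adjusted p = 0.0113). Replicate 1 of 2 weeks, 1 of the 2 arrays that stood apart, had the highest level of that age for both. The summed level of the 24 markers was 219, 118 and 130 and then 190, 241 and 290, with overlap. With both arrays that stood apart left out 16 were higher. Without replicate 2 of 2 weeks 1 was higher, without replicate 3 of 2 weeks or replicate 2 or 3 of 3 weeks 2, and without replicate 1 of 2 weeks 16. With 1 weight per group none was called.

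The genes of antigen presentation by class II molecules rose without overlap. H2-Aa, which encodes a class II chain, was at 6.45, 3.04 and 4.54 at 2 weeks and at 14.3, 25.5 and 17.9 at 3 weeks (2.06, SE 0.26, adjusted p = 0.000189), the largest rise in CTL hearts under the rule used. Cd74, the invariant chain that chaperones class II molecules, went from 3.25, 2.11 and 3.23 to 8.36, 12.3 and 8.00 (1.74, SE 0.22, adjusted p = 0.000189), and H2-Ab1 rose by 1.62 at its brighter and 1.94 at its dimmer probe. In all, 5 of 12 markers of antigen presenting cells were higher and none lower, and 4 of the 12 with 1 weight per group. Of 31 interferon response genes 7 were higher (3 without replicate 2 of 2 weeks, 4 without replicate 2 or 3 of 3 weeks), among them the GTPase Iigp1, at 7.82, 5.06 and 6.76 and then 20.1, 11.4 and 15.4 (1.24, SE 0.28, adjusted p = 0.00767).

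Erythroid genes were higher in 7 of 15 cases and lower in 1. Alas2, the first enzyme of heme synthesis in red cells, was at 20.7, 15 and 20.2 and then at 37.2, 45.0 and 37.8 (1.11, SE 0.14, adjusted p = 0.000189), and the anion exchanger Slc4a1 rose by 1.03 (SE 0.14, adjusted p = 0.000282). Hbq1a, a theta globin, was above background on 1 array of 2 weeks and on all 3 of 3 weeks (2.05, SE 0.30, adjusted p = 0.000539). The transferrin receptor Tfrc, which imports iron, went the other way, from 33.5, 52.6 and 59.5 to 30.2, 24.0 and 28.1 (-0.79, SE 0.20, adjusted p = 0.0149). The summed level of the 15 erythroid genes was 112 to 135 and 145 to 155. The heart tissue was not stated to be perfused, and blood left in it was not measured apart.

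Antioxidant and detoxification genes were more often higher than lower. Gstk1, a glutathione transferase of mitochondria and peroxisomes, was at 6.63, 4.91 and 6.12 at 2 weeks and at 19.9, 20.1 and 19.4 at 3 weeks. Its rise of 1.76 (SE 0.11, adjusted p = 9.5e-07) was large beside the spread of either age, and it was called with brightness as a covariate too (1.56, adjusted p = 0.00606). Of 28 antioxidant and NRF2 target genes 10 were higher and 1 lower (median 0.33), with 8 higher under 1 weight per group. Gstm1 went from 20.7, 21.6 and 26.1 to 51.9, 47.8 and 44.9 (1.08, SE 0.11, adjusted p = 4.79e-05), Gstm2 rose by 1.25 (adjusted p = 4.42e-05, and 0.0434 with brightness as a covariate), and the quinone reductase Nqo1 by 0.94 (SE 0.10, adjusted p = 7.73e-05). Catalase, Cat, which breaks down the peroxide made by peroxisomal oxidation of fatty acids, was the member that fell, from 81.9, 87.2 and 87.4 to 57.7, 53.9 and 56.3 (-0.61, SE 0.09, adjusted p = 0.000426). Cat was called at 1 of 2 probes, and the 2 differed in sign.

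Cholesterol synthesis had 10 of 25 genes higher and none lower (median 0.33). The desaturase Sc5d was at 5.17, 5.56 and 5.46 and then at 7.75, 7.58 and 7.95 (0.52, SE 0.10, adjusted p = 0.00279), without overlap, and the isomerase Idi1 rose by 0.69 (SE 0.19, adjusted p = 0.0221). Without replicate 2 of either age 3 members were higher, without replicate 3 of 2 weeks 6, and with 1 weight per group 2.

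Glucocorticoid target genes went both ways, with 6 of 21 higher and 4 lower. Hsd11b1, which regenerates active glucocorticoid in tissue, rose from 1.22, 0.713 and 0.783 to 2.00, 2.44 and 3.35 (1.53, SE 0.26, adjusted p = 0.00134), and the transcription factor Klf15, an activator of branched-chain amino acid breakdown in heart, from 1.44, 1.97 and 2.03 to 3.89, 5.12 and 3.90 (1.25, SE 0.19, adjusted p = 0.000721). Both were without overlap. The lower members were Angptl4 and Pdk4, with the kinase Sgk1 (-0.97, SE 0.14, adjusted p = 0.000447) and the receptor inhibitor Errfi1 (-0.69, SE 0.20, adjusted p = 0.0243).

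Imprinted and fetal growth genes had 6 of 32 members lower and none higher, with a median change of -0.06. The share called, 18.8%, was close to the 16.1% of all probes tested. With median scaling 5 members were lower and 2 higher (median -0.02), and with 1 weight per group 5 were lower and none higher. The growth factor Igf2 was at 46.9, 36.4 and 31.8 and then at 19.8, 22.4 and 28.9 (-0.69, SE 0.17, adjusted p = 0.0116), and the neighbouring noncoding RNA H19 at 53.2, 38.0 and 30.3 and then at 16.6, 16.5 and 29.1 (-0.98, SE 0.23, adjusted p = 0.00891). The ages did not overlap for either, but replicate 3 was the highest heart of 3 weeks and the lowest of 2 weeks for both. Meg3 (-0.89), Airn (-0.86), Grb10 (-0.64) and Kcnq1ot1 (-0.58) were the other members that fell. Meg3 was called at 4 of 6 probes, and the 6 differed in sign.

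Among the 12 largest rises and falls outside these lists, Gcat, a mitochondrial enzyme of threonine breakdown, was at 1.35, 1.02 and 1.23 at 2 weeks and at 3.05, 4.68 and 5.02 at 3 weeks (1.80, SE 0.18, adjusted p = 5.93e-05). Mat2a, which makes the methyl donor S-adenosylmethionine, went from 2.84, 1.46 and 1.88 to 5.13, 8.66 and 7.54 at 1 of 2 probes (1.81, SE 0.24, adjusted p = 0.000249), and its 2 probes were called with opposite signs. Lrat, which esterifies retinol for storage, rose from 0.422, 0.259 and 0.596 to 1.66, 1.65 and 1.33 (1.94, SE 0.25, adjusted p = 0.000246). Of the falls, the galectin Lgals4 went from 16.5, 19.6 and 20 to 7.30, 3.30 and 6.10 (-1.82, SE 0.21, adjusted p = 9.66e-05), and the desaturase Scd4 from 3.02, 7.19 and 2.79 to 1.45, 1.62 and 0.659 (-1.77, SE 0.35, adjusted p = 0.00393). Depdc1a, a gene of dividing cells, fell by 2.21 (SE 0.51, adjusted p = 0.00841). None of these overlapped between the ages, but the rule that chose them required this, so it adds no support.

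The change with age in CTL hearts was set beside that in the hearts with Cre, which were measured in the same 2 scan sets. Of the probes called in CTL hearts 91% had the same direction with 1 floxed allele and Cre (Het-CKO) and 89.3% with 2 (Hom-CKO), against 69.9% and 69.8% of all probes tested, and 27.5% and 35% were called in the same direction. A test of the difference between CTL and Het-CKO hearts called 1 probe of 26563 (0.00376%), Uts2r, with 2419 at an unadjusted p under 0.05. The difference between CTL and Hom-CKO hearts was called for 331 of 26566 (1.25%), 113 of them with the higher change in CTL hearts. Among the genes described above, Bckdhb was called (difference 0.61, SE 0.14, adjusted p = 0.0495), whose mean level in Hom-CKO hearts was 18.0 at 2 weeks and 20.3 at 3 weeks. So was Nppa (-2.38, SE 0.55, adjusted p = 0.0432), which went from a mean of 26.3 to 241 in Hom-CKO hearts.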

How the data were processed

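Each sample was the ventricular RNA of 1 mouse heart on 1 CodeLink Whole Mouse Genome array. The deposited scanner files hold raw intensity per spot with quality flags, per the file headers from CodeLink software version 5.0.0.31312. The deposited series table holds the same values scaled by the authors, and 629406 values compared with the scanner files differed by at most 0.001, so it was used as an alternative. The authors normalized by quantiles and compared groups by a t-test.

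Here 34967 discovery probes were used, spots flagged as contaminated, irregular or masked were left out, the intensity was quantile normalized over 18 arrays and divided by the median probe, and values were floored at the 1st percentile of spots above background (0.259) before log2. A probe was tested where 1 or more of the 6 groups had it above background on each of its 3 arrays (26606 probes). limma 3.58.1 in R 4.3.3 was fitted with 1 mean per group over 18 arrays, with Benjamini-Hochberg adjustment over all probes and calls at an adjusted p under 0.05. The script was tested on simulated data. "At least" folds set the group above background against, per array, the higher of the dim spot and the lowest signal above background. With 3 hearts a group a two-sided exact permutation test cannot go below 0.1, and the number of arrays limits the precision.

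A gene with several probes stood in a list at its brightest tested probe. Genes named were fixed anchors of the sarcomere with Cops8, the 12 largest rises and falls among called probes with no overlap and all arrays of the higher group above background, up to 4 called members of each list in each direction, and up to 4 probes of each difference between genotypes. Xist, Ddx3y and other members given beside them were added for description after their values were seen. The gene lists, tests and members were chosen with earlier results of these data known, and support nothing by themselves. Symbols came from the platform annotation, updated through RefSeq, and promoters from RefSeq on GRCm38.p6. Some members of the lists are not reported here.

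Alternatives of scaling were median scaling, quantiles over the CTL arrays alone (with the fit on these arrays too), and the series table. Further ones were normexp background correction with an offset of 50, flagged spots kept, and an added constant of 0.25 in place of the floor. No filter and a stricter filter were also used. The other alternatives were a fit on the CTL arrays alone, the methods' t-test, array quality weights, the replicate number as a block, and each CTL array left out. Brightness as a covariate, 1 weight per group and leaving out both arrays that stood apart were chosen after seeing the data.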

Additional observations from a re-analysis of the deposited data

Results flagged for a closer look

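The change from 2 to 3 weeks differed between genotypes, by the interaction term in limma, for the following genes, the 4 largest in each direction, or all where fewer were called. Against Het-CKO hearts the change of Uts2r, the urotensin receptor, was higher in CTL hearts by 1.08 on the log2 scale (adjusted p = 0.0416): it rose by 0.70 in CTL hearts and fell by 0.38 in Het-CKO hearts. Against Hom-CKO hearts the change was higher in CTL hearts for Lgi1 by 2.36 (adjusted p = 0.00366), Lrat by 2.24 (adjusted p = 0.00376), Jade1 by 2.02 (adjusted p = 4.96e-06) and 2310039L15Rik by 1.86 (adjusted p = 4.09e-05). Of these, the Jade1 probe given here did not pass the test in CTL hearts (-0.06, adjusted p = 0.786) and fell by 2.07 in Hom-CKO hearts. In CTL hearts 1 of the 2 Jade1 probes tested was called. Lrat rose by 1.94 in CTL hearts and was at -0.31 in Hom-CKO hearts (adjusted p = 0.483). The change was lower in CTL hearts for Bdh1 (-3.85, adjusted p = 2.73e-07), Ido1 (-3.36, adjusted p = 6.94e-05), Cda (-3.12, adjusted p = 1.08e-05) and Rasgrf2 (-3.05, adjusted p = 1.07e-07). Bdh1 was not above background on any CTL array of 2 weeks, so that its rise in CTL hearts is a bound (at least 2.49-fold), beside 5.22 on the log2 scale in Hom-CKO hearts. Rasgrf2 was not above background on any CTL array. The sizes of the differences for Bdh1 and Rasgrf2 therefore depend on values near the floor and are not exact.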

How the results depend on the processing

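The number of probes called in CTL hearts, 4286, was between 3289 and 5653 with median scaling, the series table, normexp background, flagged spots kept, an added constant, no filter, the stricter filter, array quality weights, both arrays that stood apart left out, or a replicate block (4237). It was 13 with quantiles over the CTL arrays alone, 148 in a fit on the CTL arrays alone, 17 by the methods' t-test after Benjamini-Hochberg, 1497 with 1 weight per group and 10 with brightness as a covariate. Leaving out 1 array gave 2092 to 4981. The 249 called list members became 2, 26, 1, 112 and 1, and the 174 called named genes 3, 25, 0, 94 and 3, in the same order, with 158 to 272 and 117 to 158 without 1 array. The single call between CTL and Het-CKO hearts became 2 with median scaling, the series table or brightness, 3 with an added constant, 7 without both arrays, 0 with normexp, array weights, group weights or the block, and 0 to 4 without 1 array. The 331 calls between CTL and Hom-CKO hearts were 228 to 551 without 1 array, the highest without replicate 3 of 3 weeks. Replicate numbers did not pair the samples: deviations of same-numbered arrays correlated at -0.481, -0.104 and -0.281, no array correlated best with its own number, and the replicate block gave 247 list members and 168 named genes. Why the counts moved was not tested, beyond the smaller number of arrays in some fits. Signs turned for Myl4 (0.09 with median scaling, 0.05 with the values of the series, -0.37 to 0.15 without 1 array, 0.0025 of these without replicate 1 of 2 weeks, 0.16 with brightness, 0.27 without both), Actc1 (0.43, 0.40 and, with brightness, 0.04), Cops8 (0.11 and 0.07), Fabp3 (0.05 and 0.02), Ckb (0.01 with median scaling), Jade1 (0.15, 0.11, then -0.17 to 0.07 without 1 array, 0.02 of these without replicate 2 of 2 weeks, and 0.11 with brightness), Acta2 (array weights -0.04, -0.11 to 0.23 without 1 array, without both -0.03), Myl2 (-0.03 to 0.10 without 1 array), Nppb (0.00068) and Cda (0.09) without both, and, with brightness, Myh7 (0.50), Jarid2 (0.08), Eif2s3x (0.04), Kdm6a (0.33) and Rasgrf2 (-0.08). Of the probes used for these genes, those of Fabp3 and Jarid2 were called in CTL hearts. Dim probes are limited by the floor, and age cannot be told apart from scan set.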

Other observations

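Other lists that were tested gave the calls below in CTL hearts, where 16.1% of all probes tested were called. Of 21 circadian clock genes 3 were higher, among them Nr1d2, a repressor of the clock (0.71, adjusted p = 0.00719), and 2 were lower, Clock (-0.73, adjusted p = 0.00306) and Cry1 (-0.40, adjusted p = 0.0326). These calls were 23.8% of the clock list. With 1 weight per group 1 clock gene was higher and 1 lower, and without 1 array at a time 1 to 2 were higher and 1 to 2 lower. Of 22 splicing regulators 2 were lower, Ptbp2 (-0.61, adjusted p = 0.00634) and Tia1 (-0.54, adjusted p = 0.023), and none was higher. Ptbp2 was called at 1 of 6 probes, and the 6 differed in sign. Of 38 regulators of the cardiomyocyte cycle 4 were lower, near the share of all probes (8.44%), and none was higher. They were the repressor Jarid2 (-0.65), the transcription factors Gata6 (-0.53) and Hand2 (at least 1.18-fold, below background at 3 weeks), and Bmp10 (-0.62), a growth factor of the trabeculae. Jarid2 was called at 2 of 7 probes, and the 7 differed in sign. Without 1 array at a time 1 to 7 were lower (1 without replicate 2 of either age, 7 without replicate 1 of 2 weeks) and 0 to 3 higher (3 without replicate 3 of 3 weeks). With 1 weight per group none was called, and with median scaling 4 were higher and 3 lower. Bmp10 is also in the list of atrial and conduction markers, where it was the only member called of 18 tested.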
